A study of Rattus norvegicus with 11 samples.

Results

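Interferon response genes are the genes that cells switch on, or depend on, when they answer interferons, the cytokines of antiviral and antimicrobial defence. A list of 38 such genes was looked up by symbol in a table of 16811 rat genes, and all 38 were found there. Of them, 37 reached a value of 10 in 3 or more of the 11 libraries and make up the set described here. The remaining member, Eif2ak2, the gene of the kinase PKR that stops translation when double-stranded RNA is present, was listed at 0 in every library and was not tested. The RNA came from dorsal root ganglia of Sprague-Dawley rats, the ganglia that hold the cell bodies of sensory neurons. The groups were left ganglia treated with UNC0638 after ligation of the spinal nerve (SNL plus UNC0638, n = 3), left ganglia after that ligation alone (SNL, n = 4) and right ganglia of sham controls (Sham, n = 4). UNC0638 inhibits the histone methyltransferases G9a and GLP, and the series concerns G9a and the silencing of potassium channel genes after nerve injury. No group had UNC0638 without ligation, ligation and side of the body differed together, and the sources used here give no dose, time after surgery or age.

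Type I interferons bind a receptor with the subunit Ifnar1, and interferon gamma binds a receptor made of Ifngr1 and Ifngr2. Janus kinases at these receptors activate STAT proteins, which, with Irf9 after type I interferons, bind the interferon-stimulated response element or, after interferon gamma, the gamma-activated sequence, and so switch on genes of antiviral effectors, RNA sensors and GTPases. Sensory neurons, glia and macrophages can all respond to interferons, and interferon signalling is known to affect pain sensitivity in rodents.

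The deposited values behave like gene counts scaled by a single factor per library. The library totals were 9450045 to 11347920, and the reads behind them, estimated from the step between low values, 6127881 to 24367805. Neuron, satellite glia and Schwann cell markers were present in every library, as the label of the tissue requires. SNL plus UNC0638 replicate 1 stood apart in its skeletal muscle markers, with a summed value of 77295 against 148 to 547 in the other libraries of the ligated groups and 174 to 205 in Sham libraries. Calls that change when it is left out are given beside the genes concerned. Nothing in the labels says that the libraries of a group came from separate animals, and p-values therefore measure the spread between libraries, which may be technical in part. In whole ganglia, more cells of a type and more RNA per cell cannot be told apart.

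The stretch upstream of each member was searched for the binding motifs of interferon-activated factors. RefSeq promoter windows (build GRCr8, 250 bases before to 50 bases after the annotated start) were found by symbol for 30 of the 38 members, and none for Ifit1, Ifit2, Mx2, Isg15, Usp18, Ddx58, Dhx58 and Ifitm1. The interferon-stimulated response element was searched as TTTC, any 2 bases and TTTC again, and the gamma-activated sequence as TTCNNNGAA, each on both strands. The response element was found in 19 of the 30 windows (63.3%), against 3.77% of 27457 windows of the same length over all genes. In 15 of these 19 members a match began within 100 bases before the start. The gamma-activated sequence was found in 10 of the 30 windows (33.3%), against 8.68% of all windows. Windows of 8 members held both motifs, and in 1 of them, Bst2, the matches overlapped. The windows of Ifnar1, Ifngr1, Ifngr2, Jak2, Stat2, Trim25, Mx1, Oasl and Parp9 held neither motif, which says only that these letters are not in that stretch. Of the 19 members with the response element, which include the untested Eif2ak2, 8 were higher in SNL than in Sham ganglia, and of the 11 members without it also 8. The 250 bases before the start are printed for Ifitm3 (chr1:205541759-205542008, minus strand), Gbp2 (chr2:234005477-234005726, plus strand) and Igtp (chr10:42874797-42875046, plus strand), the members with the response element and the smallest p-values in SNL against Sham. Each reads 5′ to 3′ towards the gene, with the response element in capitals. The matches began 44, 31 and 103 bases before the start of Ifitm3, Gbp2 and Igtp. A match is a description of these letters and not evidence of binding.
Ifitm3: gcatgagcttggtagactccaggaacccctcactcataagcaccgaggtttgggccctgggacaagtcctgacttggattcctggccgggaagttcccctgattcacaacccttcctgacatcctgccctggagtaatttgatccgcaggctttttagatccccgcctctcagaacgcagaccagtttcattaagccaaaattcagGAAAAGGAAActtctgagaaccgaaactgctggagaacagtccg
Gbp2: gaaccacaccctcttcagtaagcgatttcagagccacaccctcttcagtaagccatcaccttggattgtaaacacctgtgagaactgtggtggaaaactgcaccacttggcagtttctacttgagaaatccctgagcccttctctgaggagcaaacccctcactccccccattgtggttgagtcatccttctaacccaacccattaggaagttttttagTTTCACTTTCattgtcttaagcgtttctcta
Igtp: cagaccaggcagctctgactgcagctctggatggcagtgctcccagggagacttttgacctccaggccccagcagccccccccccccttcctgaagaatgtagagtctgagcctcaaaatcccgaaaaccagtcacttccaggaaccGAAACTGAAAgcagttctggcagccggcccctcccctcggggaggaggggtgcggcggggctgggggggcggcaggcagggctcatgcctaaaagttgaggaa

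**Figure D1:**
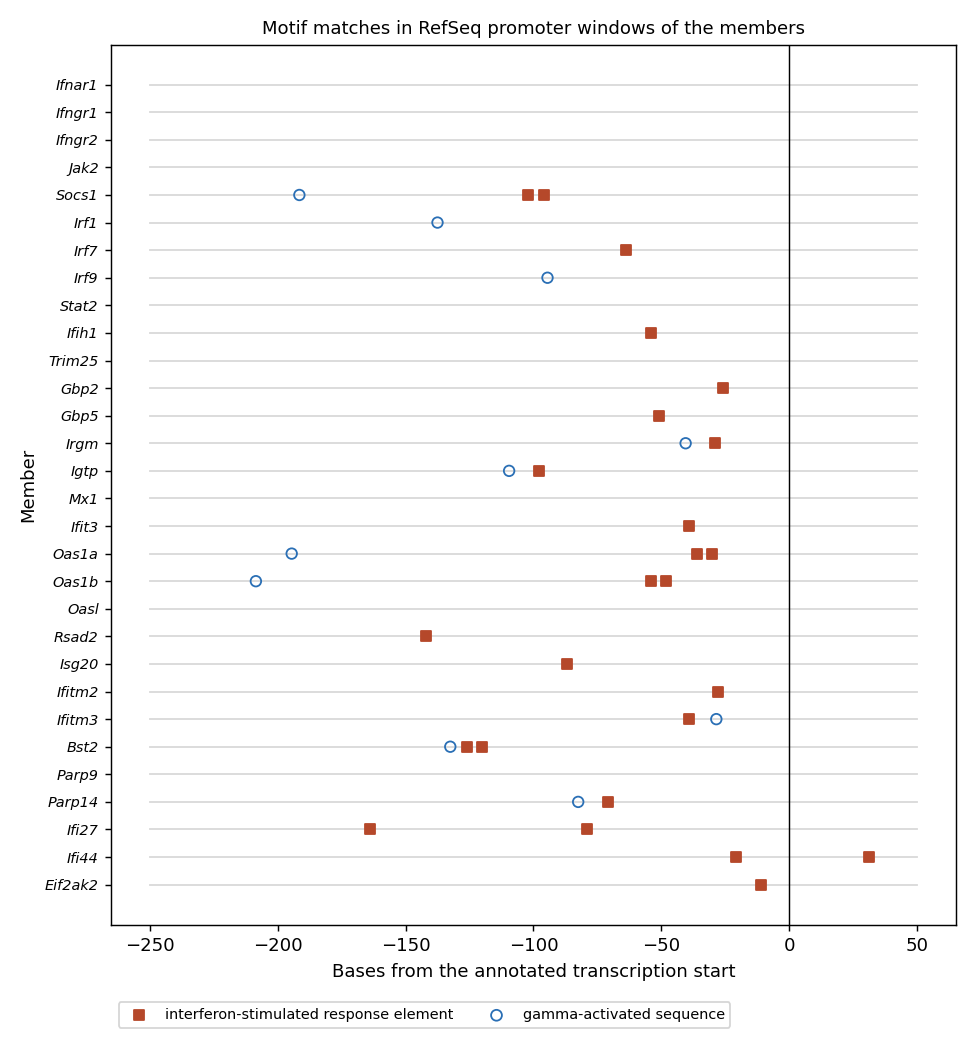
Matches to the interferon-stimulated response element (filled squares) and the gamma-activated sequence (open circles) in the promoter windows of 30 interferon response genes, by distance in bases from the annotated transcription start (vertical line). Most of the 19 members with the response element carry it within 100 bases before the start.

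More interferon response genes were called higher than lower after ligation. Of 37 members 33 had a log2 fold change above 0 in SNL against Sham, as had 49.8% of all genes tested. In SNL against Sham ganglia 17 of the 37 tested members rose and 1 fell (limma on log2 values, Benjamini-Hochberg adjusted p under 0.05 over all 12085 genes tested), and 48.2% of all genes were called. Members called higher were 45.9% of the set, against 24.8% of all genes, and members called lower 2.70%, against 23.4%. The median log2 fold change was 0.64 for the members and 0.00 for all genes tested. In 17 members every SNL library lay above every Sham library (22.1% of all genes), and in 1 below (21.2%). These are not all called members, and 2 called members overlapped, Bst2 and Trim25. In SNL plus UNC0638 against SNL ganglia, 4 members were higher (10.8%, against 13.5% of all genes) and 3 lower (8.11%, against 14.3%), which makes 7 of 37 (18.9%), against 27.8% of all genes. The libraries of these groups did not overlap in 4 members that were higher (17.7% of all genes) and 2 that were lower (19.9%). The 4 were Irf1, Igtp, Irf9 and Trim25, and the 2 were Mx2 and Bst2. Irf9, Trim25 and Bst2 were not called, and 4 called members overlapped, namely Irgm, Parp14, Mx1 and Ifngr2. The median log2 fold change was 0.12 for the members and 0.01 for all genes. In SNL plus UNC0638 against Sham ganglia, 17 members were higher (45.9%, against 25.5% of all genes) and 1 was lower (2.70%, against 26.0%), with 51.5% of all genes called and a median of 0.74 for the members and -0.01 for all genes. Groups did not overlap in 17 higher members (23.4% of all genes) and 1 lower member (24.9%). Here too not all of these were called, and 2 called members overlapped, Ifngr2 and Isg20. Each group enters a pair of these comparisons, so that their counts are not independent of each other. The plot of fold changes by role shows the 3 comparisons side by side.

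**Figure D2:**
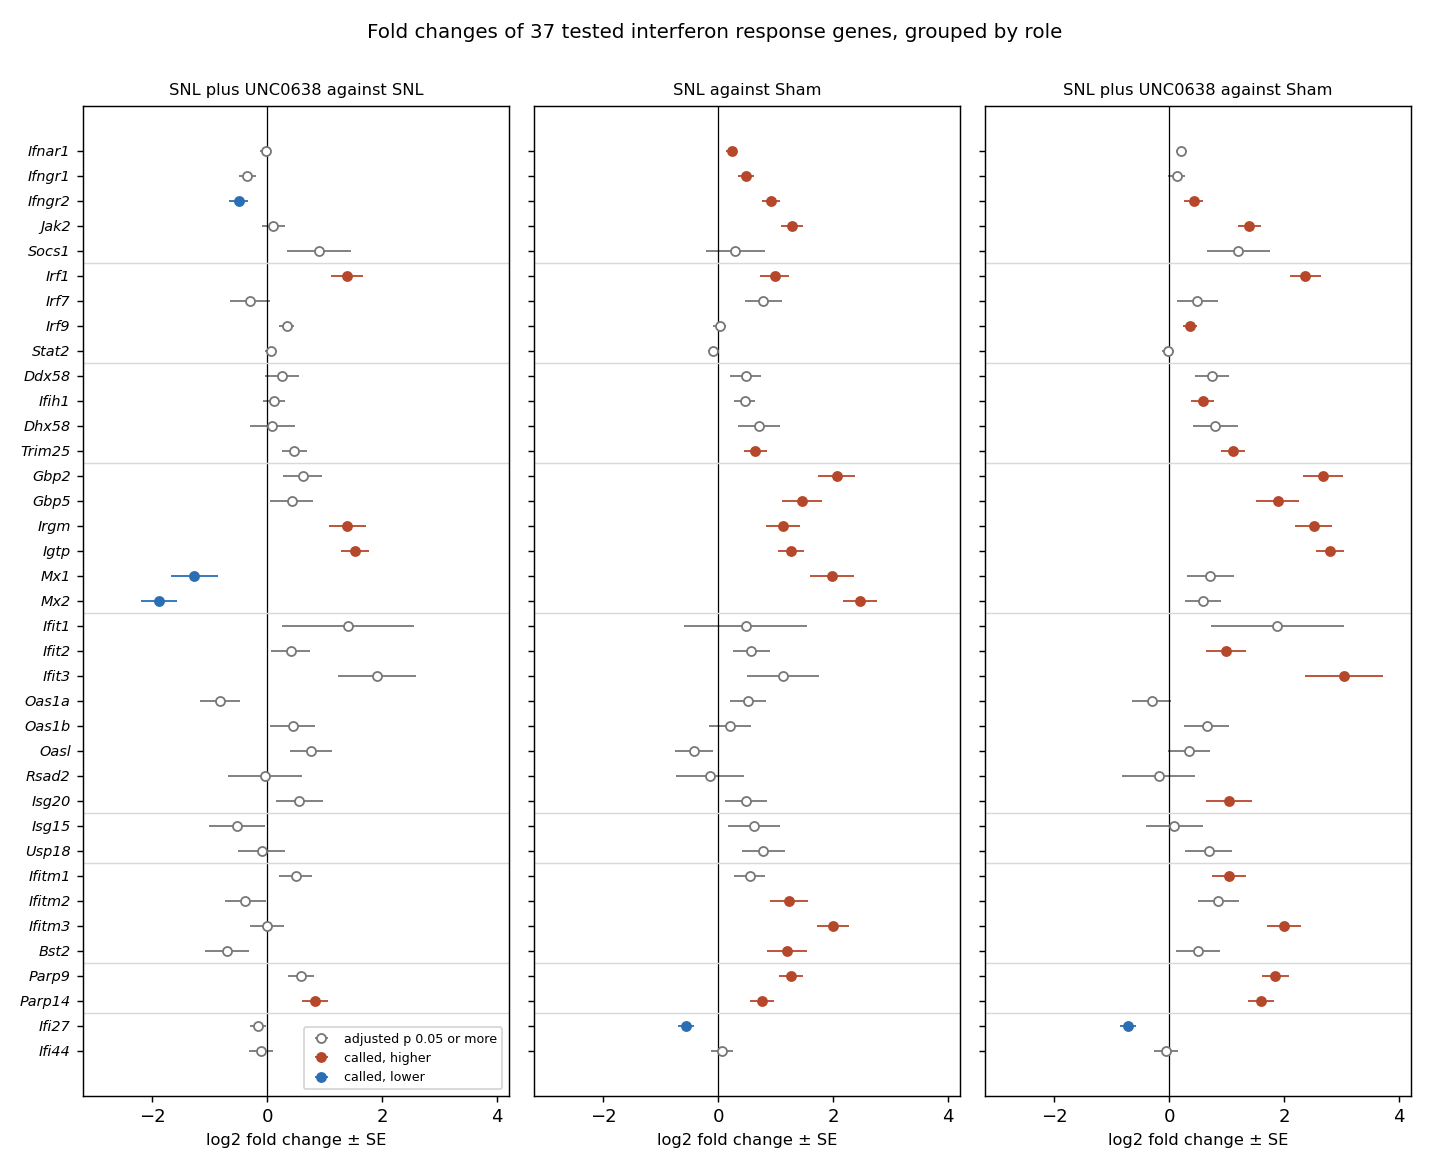
Log2 fold changes with standard errors (limma, 3 or 4 libraries a group) of 37 interferon response genes in 3 comparisons, grouped by role with grey lines between groups; filled points passed the adjusted threshold of 0.05. All 6 inducible GTPases stand to the right of 0 in SNL against Sham, and in SNL plus UNC0638 against SNL Irgm and Igtp stand to the right and Mx1 and Mx2 to the left.

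Of the 5 genes of receptors and their signalling, 4 rose after ligation, as did 24.8% of all genes tested. Ifngr2, the signalling chain of the interferon gamma receptor, had values of 503, 755 and 703 in SNL plus UNC0638 libraries, 1054, 911, 753 and 940.3 in SNL libraries and 467, 532, 409.8 and 515 in Sham libraries. All SNL libraries lay above all Sham libraries (log2 fold change 0.92 with an SE of 0.15 and adjusted p = 0.000568), and the values with UNC0638 were lower than in SNL (log2 fold change -0.50 with an SE of 0.16 and adjusted p = 0.0422), with SNL plus UNC0638 replicate 2 just above the lowest SNL library. The call between the ligated groups failed in 7 of 11 fits that each omitted 1 library, namely without Sham replicates 1 or 4, SNL replicates 1, 2 or 4, or SNL plus UNC0638 replicates 1 or 3 (adjusted p 0.0565 to 0.160). Against Sham, Ifngr2 with UNC0638 was higher (log2 fold change 0.43 with an SE of 0.16 and adjusted p = 0.0458), though replicate 1 overlapped the Sham range, and the call failed in 7 of 11 such fits, namely without Sham replicates 1, 3 or 4, SNL replicates 2 or 4, or SNL plus UNC0638 replicates 2 or 3 (adjusted p 0.0575 to 0.188). Ifngr1, the ligand-binding chain, had values of 826, 883 and 899 in SNL plus UNC0638 libraries, 1462, 1105, 877 and 1052 in SNL libraries and 769, 771, 784 and 843 in Sham libraries. It rose in SNL without overlap (log2 fold change 0.48 with an SE of 0.14 and adjusted p = 0.0128), while SNL plus UNC0638 libraries stood at log2 fold changes of -0.35 against SNL (adjusted p = 0.0974) and 0.13 against Sham (adjusted p = 0.464). Ifnar1 had values of 1570.4, 1635 and 1758 in SNL plus UNC0638 libraries, 1701, 1799.6, 1566 and 1667 in SNL libraries and 1486, 1392, 1438 and 1404 in Sham libraries. All SNL libraries lay above all Sham libraries, and its rise was the smallest among the called members (log2 fold change 0.23 with an SE of 0.09 and adjusted p = 0.0482) and failed in 8 of 11 fits, namely without Sham replicates 1, 2 or 4, SNL replicates 1, 2 or 4, or SNL plus UNC0638 replicates 2 or 3 (adjusted p 0.0524 to 0.132). With UNC0638 it stood at -0.02 against SNL (adjusted p = 0.861) and 0.21 against Sham (adjusted p = 0.0893).

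Jak2, the kinase bound to Ifngr2 and to several other cytokine receptors, had values of 1251, 2239 and 2135 in SNL plus UNC0638 libraries, 1907, 1768, 1313 and 1813 in SNL libraries and 768, 755, 642 and 607 in Sham libraries. Each ligated library exceeded each Sham library, with log2 fold changes of 1.29 in SNL (SE 0.19, adjusted p = 0.000301) and 1.39 in SNL plus UNC0638 (SE 0.20, adjusted p = 0.00034), and the ligated groups overlapped (log2 fold change 0.11 with an SE of 0.20 and adjusted p = 0.706). Socs1, the feedback inhibitor of Janus kinases, was near the lower limit of the table, at 8.07 to 43.3 in SNL plus UNC0638, 6.86 to 12.2 in SNL and 2.78 to 12.5 in Sham libraries. It passed no test over all libraries and was called higher with UNC0638 than in Sham without SNL plus UNC0638 replicate 1.

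Among the transcription factors Irf1 moved most. Irf1, which interferon gamma induces and which drives many of the other members, had values of 604, 1603 and 1159.7 in SNL plus UNC0638 libraries, 428, 364, 334 and 479 in SNL libraries and 242, 160.2, 210.4 and 198 in Sham libraries. The 3 groups did not overlap. Irf1 rose in SNL against Sham (log2 fold change 0.98 with an SE of 0.25 and adjusted p = 0.0079), was higher again in SNL plus UNC0638 against SNL (log2 fold change 1.39 with an SE of 0.27 and adjusted p = 0.0047) and averaged 1122 ± 500.2 with UNC0638, 401 ± 64.9 in SNL and 203 ± 33.9 in Sham ganglia (SD, n = 3, 4 and 4). Against Sham its log2 fold change with UNC0638 was 2.37 (SE 0.27, adjusted p = 0.000127). No Irf1 call was lost when any single library was left out. Irf9, the DNA-binding partner of Stat2, had values of 419, 543 and 450.2 in SNL plus UNC0638 libraries, 349, 395, 329 and 411 in SNL libraries and 387, 335, 354 and 380.4 in Sham libraries. SNL and Sham libraries overlapped (log2 fold change 0.02 with an SE of 0.12 and adjusted p = 0.878), and SNL plus UNC0638 libraries lay above all others (log2 fold change 0.36 with an SE of 0.13 and adjusted p = 0.0315, against Sham), a call lost without Sham replicate 2 or SNL plus UNC0638 replicates 2 or 3 (adjusted p 0.0573 to 0.147). Against SNL the difference missed the threshold (log2 fold change 0.34, adjusted p = 0.0649). Stat2 lay between 1219 and 1488 in every library. Irf7, which drives the genes of type I interferons, ranged over 146 to 381 in SNL plus UNC0638, 179 to 445 in SNL and 133 to 221 in Sham libraries. Neither passed a test over all libraries. Irf7 was called higher in SNL than in Sham without Sham replicate 3, SNL replicate 1, or SNL plus UNC0638 replicates 1 or 2.

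The inducible GTPases rose together after ligation, all 6 of 6 (24.8% of all genes). With UNC0638 2 of them were higher (13.5% of all genes) and 2 lower (14.3%) than in SNL. Gbp2, a guanylate-binding protein that attacks the membranes around intracellular microbes, had values of 901, 3470.1 and 2212 in SNL plus UNC0638 libraries, 1507, 1329, 959 and 1239 in SNL libraries and 312, 315, 301 and 264 in Sham libraries. SNL libraries all exceeded Sham libraries, 4.22-fold in the mean (log2 fold change 2.06 with an SE of 0.32 and adjusted p = 0.00041). Among SNL plus UNC0638 libraries, replicates 2 and 3 lay above and replicate 1 below every SNL library (log2 fold change 0.62 with an SE of 0.34 and adjusted p = 0.19). Gbp5, another guanylate-binding protein, which promotes inflammasome assembly, had values of 207, 934 and 613 in SNL plus UNC0638 libraries, 436, 373, 309 and 356 in SNL libraries and 142, 115, 151 and 124 in Sham libraries, with the libraries in a like order. SNL exceeded Sham (log2 fold change 1.46 with an SE of 0.35 and adjusted p = 0.00528), while SNL plus UNC0638 against SNL did not pass (log2 fold change 0.42, adjusted p = 0.413). Without SNL plus UNC0638 replicate 1, Gbp2 and Gbp5 were called higher than in SNL. Against Sham both were higher with UNC0638, at 2.68 for Gbp2 (SE 0.34, adjusted p = 0.000196) and 1.89 for Gbp5 (SE 0.38, adjusted p = 0.00191).

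Irgm and Igtp encode immunity-related GTPases, which in mice act on the vacuoles of intracellular pathogens. Igtp had values of 710.3, 1501 and 1059 in SNL plus UNC0638 libraries, 351, 333, 308 and 463 in SNL libraries and 156, 109, 179 and 159.9 in Sham libraries. The groups stood in 3 separate ranges, with SNL above Sham (log2 fold change 1.27 with an SE of 0.23 and adjusted p = 0.000968) and SNL plus UNC0638 above SNL (log2 fold change 1.53 with an SE of 0.25 and adjusted p = 0.00177), 3.00-fold in the mean. Igtp with UNC0638 exceeded Sham 7.22-fold in the mean (log2 fold change 2.80 with an SE of 0.25 and adjusted p = 4.02e-05). Irgm had values of 190.1, 424 and 439.9 in SNL plus UNC0638 libraries, 103, 117, 94.6 and 213 in SNL libraries and 51.5, 64.8, 57.7 and 53.8 in Sham libraries. Its SNL libraries exceeded its Sham libraries (log2 fold change 1.12 with an SE of 0.30 and adjusted p = 0.00899), and UNC0638 libraries were higher than SNL (log2 fold change 1.39 with an SE of 0.32 and adjusted p = 0.00967), although SNL plus UNC0638 replicate 1 lay below SNL replicate 4. The log2 fold change of Irgm with UNC0638 against Sham was 2.51 (SE 0.32, adjusted p = 0.00019). The calls of both genes held with each library left out in turn.

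Mx1 and Mx2, dynamin-like GTPases that block viruses, were lower with UNC0638 than in SNL. Mx2 had values of 525, 1092 and 1509 in SNL plus UNC0638 libraries, 3657, 3934, 2344 and 4464 in SNL libraries and 554, 604, 795 and 599 in Sham libraries. All SNL libraries lay above all others. Mx2 rose 5.64-fold in the mean in SNL against Sham (log2 fold change 2.47 with an SE of 0.29 and adjusted p = 0.000134), the highest log2 fold change of the 37 members in that comparison, and was lower in SNL plus UNC0638 than in SNL (log2 fold change -1.88 with an SE of 0.32 and adjusted p = 0.0022). SNL plus UNC0638 against Sham gave 0.59 (SE 0.32, adjusted p = 0.136), with replicate 1 below every Sham library and replicates 2 and 3 above them. Mx1 had values of 174, 514 and 388 in SNL plus UNC0638 libraries, 639.6, 969.7, 491 and 1265 in SNL libraries and 128, 186, 307 and 211 in Sham libraries. All SNL libraries exceeded the Sham libraries (log2 fold change 1.98 with an SE of 0.38 and adjusted p = 0.00143). With UNC0638 it was lower than in SNL (log2 fold change -1.27 with an SE of 0.41 and adjusted p = 0.0386), with replicate 2 above the lowest SNL library, and this call failed in 7 of 11 fits, namely without Sham replicates 2 or 4, SNL replicates 1, 2 or 4, or SNL plus UNC0638 replicates 1 or 3 (adjusted p 0.0510 to 0.150). The call of Mx2 held in all 11. Mx1 with UNC0638 did not pass against Sham (log2 fold change 0.72, adjusted p = 0.163). Without SNL plus UNC0638 replicate 1, both Mx1 and Mx2 were called higher than Sham. Mx1 and Mx2 are related in sequence, and the sources used here do not say how reads shared between gene copies were assigned, which applies also to the Gbp, Ifit, Oas and Ifitm genes.

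**Figure D3:**
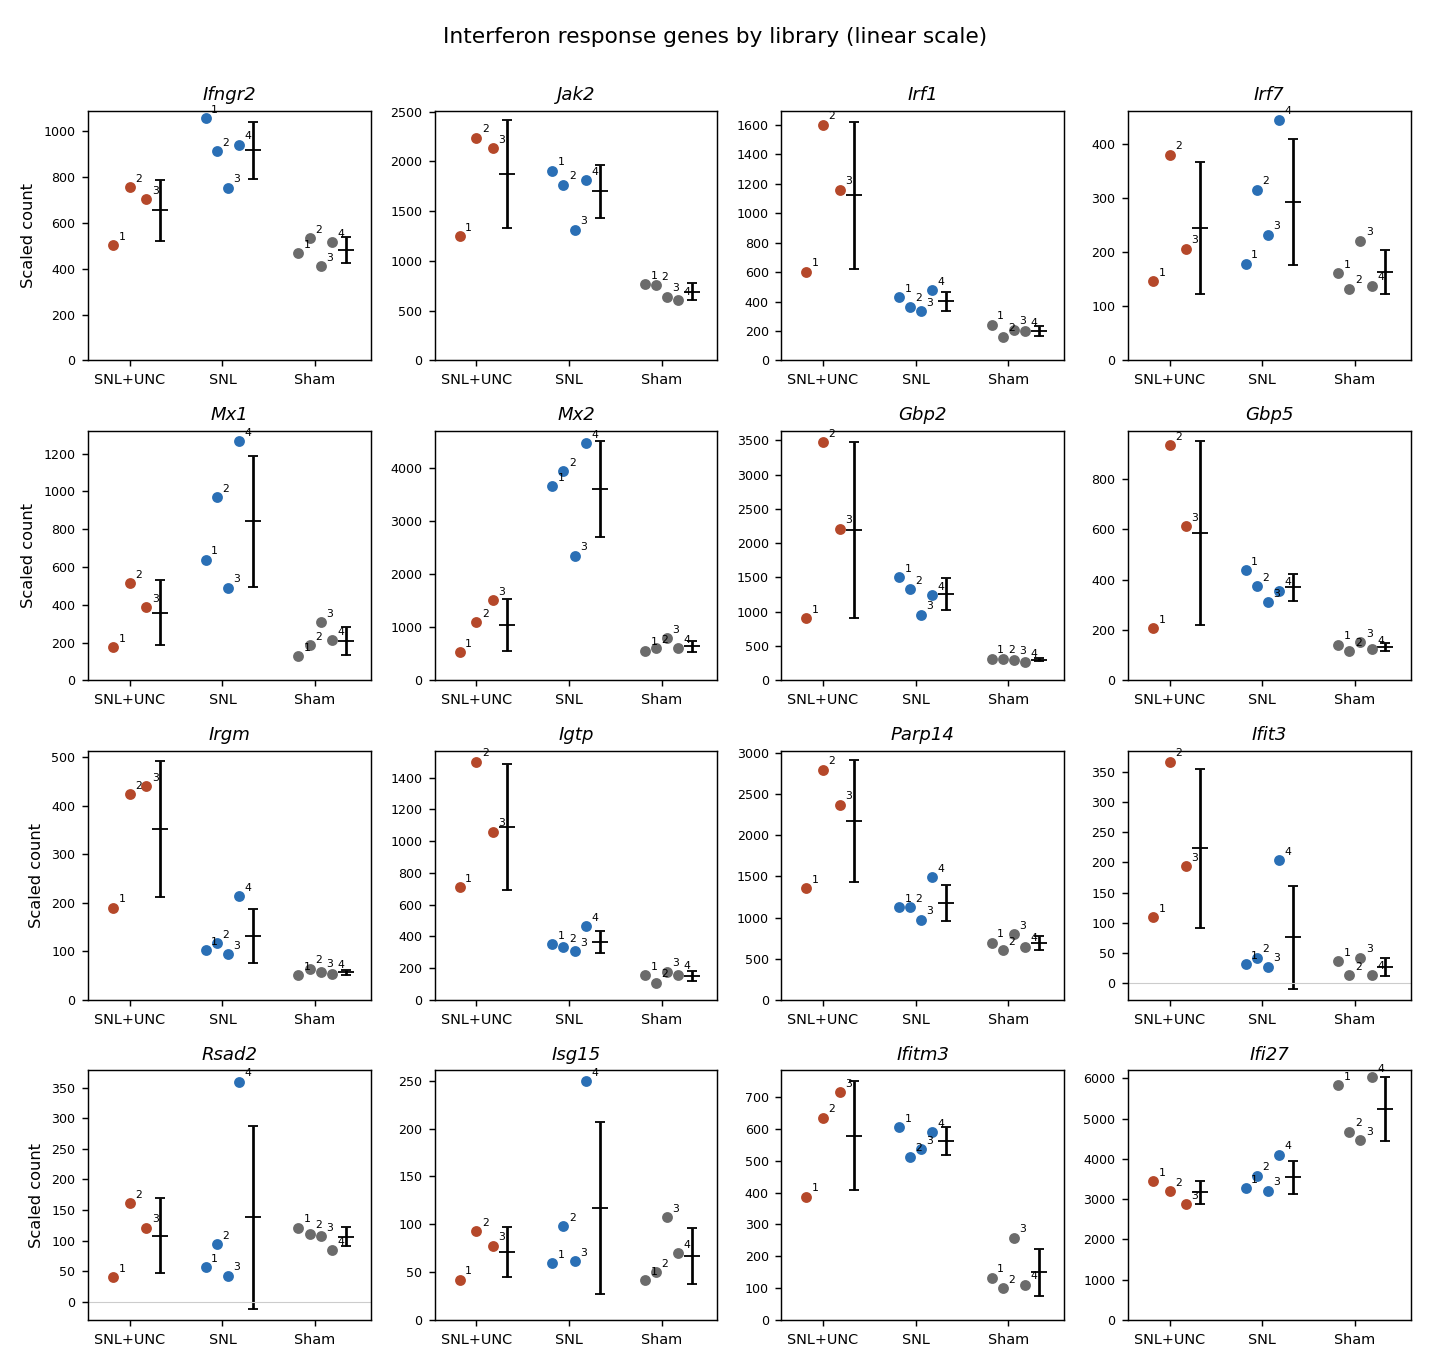
Scaled counts (linear axis) of 16 interferon response genes in each library, numbered by replicate, for SNL plus UNC0638 (SNL+UNC), SNL and Sham; the black mark beside each group is its mean with SD (n = 3, 4 and 4). Irf1, Irgm, Igtp and Parp14 are highest in SNL plus UNC0638, Mx1 and Mx2 in SNL, and Ifit3, Rsad2 and Isg15 have a single high SNL library, replicate 4.

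Of the RNA sensors, the helicase gene Ifih1 (MDA5) had values of 276, 412 and 384 in SNL plus UNC0638 libraries, 309, 309.9, 259 and 445 in SNL libraries and 255, 243, 254 and 194 in Sham libraries. SNL libraries all exceeded Sham libraries, but the difference did not pass (log2 fold change 0.46 with an SE of 0.18 and adjusted p = 0.0536), except in the fits without SNL replicate 3 or SNL plus UNC0638 replicate 1. SNL plus UNC0638 was higher than Sham (log2 fold change 0.58 with an SE of 0.20 and adjusted p = 0.0272) and overlapped SNL (log2 fold change 0.12 with an SE of 0.20 and adjusted p = 0.663), and the call against Sham was lost without Sham replicate 4 or SNL plus UNC0638 replicates 2 or 3 (adjusted p 0.0770 to 0.116). Trim25, a ubiquitin ligase that acts on the sensor RIG-I, had values of 167, 259.9 and 210.3 in SNL plus UNC0638 libraries, 140.1, 151, 148 and 165 in SNL libraries and 93.2, 71.6, 140.2 and 91.5 in Sham libraries. Trim25 rose in SNL (log2 fold change 0.64 with an SE of 0.20 and adjusted p = 0.0204), with SNL replicate 1 level with the highest Sham library and a call lost without Sham replicates 2 or 4 or SNL replicate 4 (adjusted p 0.0507 to 0.0601). It was higher than Sham with UNC0638 (log2 fold change 1.11 with an SE of 0.22 and adjusted p = 0.00159). All SNL plus UNC0638 libraries lay above all SNL libraries, which did not pass (log2 fold change 0.47 with an SE of 0.22 and adjusted p = 0.122), except in the fit without Sham replicate 3. Ddx58, the gene of RIG-I, and Dhx58, the gene of the sensor LGP2, ranged over 167 to 302 and 76.2 to 189 in SNL plus UNC0638, 133 to 278 and 73.4 to 198 in SNL, and 94.3 to 192 and 43.2 to 98.2 in Sham libraries. Neither passed over all libraries. Ddx58 with UNC0638 just missed the threshold against Sham (log2 fold change 0.74, adjusted p = 0.0506) and was called higher without Sham replicate 3, SNL replicates 1 or 4, or SNL plus UNC0638 replicate 1.

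Of the 8 antiviral effectors tested, 0 passed in limma in SNL against Sham (adjusted p 0.151 to 0.854, 0 at an unadjusted p under 0.05). In SNL plus UNC0638 against SNL 0 passed (2 at an unadjusted p under 0.05), and in SNL plus UNC0638 against Sham 3. Over all genes tested, 48.2%, 27.8% and 51.5% passed in these comparisons. An unadjusted p under 0.05 was found for 55.7% of all genes in SNL against Sham and 42.3% in SNL plus UNC0638 against SNL. Ifit3, whose product binds its relatives to seize viral RNA, had values of 109, 367 and 193 in SNL plus UNC0638 libraries, 31.0, 42.4, 27.0 and 203 in SNL libraries and 36.2, 13.6, 42.1 and 13.8 in Sham libraries. SNL replicate 4 stood far above the other SNL libraries, which lay within or just above the Sham range. In SNL against Sham the log2 fold change was 1.13 (SE 0.63, adjusted p = 0.157). SNL plus UNC0638 libraries all exceeded all Sham libraries (log2 fold change 3.04 with an SE of 0.68 and adjusted p = 0.00345) and overlapped SNL through replicate 4 (log2 fold change 1.91 with an SE of 0.68 and adjusted p = 0.0554). Without SNL replicate 4, Ifit3, Ifit2 and Oasl were called higher with UNC0638 than in SNL. Ifit2 had values of 239, 507 and 377 in SNL plus UNC0638 libraries, 213, 211, 206 and 566 in SNL libraries and 177, 173, 203 and 169 in Sham libraries. Its SNL libraries lay above its Sham libraries without passing (log2 fold change 0.58 with an SE of 0.32 and adjusted p = 0.151), and it was higher with UNC0638 than in Sham (log2 fold change 0.99 with an SE of 0.34 and adjusted p = 0.0306), a call lost without Sham replicates 1, 2 or 4 or SNL plus UNC0638 replicates 2 or 3 (adjusted p 0.0594 to 0.142). Against SNL, Ifit2 with UNC0638 stood at 0.41 (adjusted p = 0.38).

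Isg20, an exonuclease that degrades single-stranded RNA, had low values of 9.87, 20.1 and 18.1 in SNL plus UNC0638 libraries, 11.3, 11.1, 9.01 and 9.12 in SNL libraries and 4.17, 4.54, 12.5 and 9.22 in Sham libraries. The difference of SNL plus UNC0638 from Sham (log2 fold change 1.04 with an SE of 0.40 and adjusted p = 0.047) rested on an estimated 3 to 14 reads a library in these groups and failed in 9 of 11 fits (adjusted p 0.0526 to 0.164), all but those without Sham replicate 3 or SNL plus UNC0638 replicate 1. It passed neither in SNL against Sham (log2 fold change 0.48, adjusted p = 0.302) nor against SNL (log2 fold change 0.56, adjusted p = 0.307). Ifit1 was uneven within groups, at 43.9 to 61.9 in SNL plus UNC0638 libraries, 51.7, 3.86, 42.8 and 12.8 in SNL libraries and 50.1, 2.27, 73.2 and 2.31 in Sham libraries, and had the widest spread of all members in the SNL and Sham groups. The oligoadenylate synthetase genes Oas1a and Oas1b and the related Oasl passed no test. Oas1a ranged over 37.7 to 63.4 in SNL plus UNC0638, 50.8 to 138 in SNL and 43.1 to 85.7 in Sham libraries. Oas1b ranged over 64.6 to 145 in SNL plus UNC0638, 40.4 to 143 in SNL and 48.9 to 81.5 in Sham libraries. Oasl ranged over 39.99 to 75.8 in SNL plus UNC0638, 19.8 to 55.6 in SNL and 29.5 to 56.1 in Sham libraries. The groups overlapped for each of these genes. Rsad2, whose product viperin hinders viral replication, passed no test either. Rsad2 stood at 40.4 to 161 in SNL plus UNC0638, at 42.0 to 94.3 in SNL replicates 1 to 3, at 360.3 in SNL replicate 4 and at 84.5 to 121 in Sham libraries. Isg15, a ubiquitin-like modifier that interferons induce, and Usp18, the protease that removes it, also passed no test. Isg15 was at 42.2 to 92.8 in SNL plus UNC0638, 59.3 to 97.7 in SNL replicates 1 to 3 and 249.9 in SNL replicate 4, and 41.7 to 108 in Sham libraries. Usp18 ranged over 27.8 to 60.3 in SNL plus UNC0638, 30.04 to 84.8 in SNL and 15.9 to 35.8 in Sham libraries.

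The membrane proteins rose after ligation in 3 of 4 cases (24.8% of all genes). Ifitm3, which hinders the entry of enveloped viruses and whose promoter window with the response element is printed above, had values of 387, 636 and 716 in SNL plus UNC0638 libraries, 607, 513, 536 and 591 in SNL libraries and 132, 99.98, 259 and 109.9 in Sham libraries. All ligated libraries exceeded all Sham libraries, with log2 fold change 2.0 with an SE of 0.27 and adjusted p = 0.000222 in SNL and log2 fold change 2.0 with an SE of 0.30 and adjusted p = 0.000385 in SNL plus UNC0638. Between the ligated groups the difference was 0.00 (SE 0.30, adjusted p = 0.997). Ifitm2 had values of 371, 569 and 860.4 in SNL plus UNC0638 libraries, 947, 667, 398 and 1172 in SNL libraries and 338, 364, 232 and 335 in Sham libraries. It rose in SNL without overlap (log2 fold change 1.23 with an SE of 0.33 and adjusted p = 0.00916) and did not pass with UNC0638, at -0.38 against SNL (adjusted p = 0.435) and 0.86 against Sham (adjusted p = 0.0612). Against Sham it passed without SNL replicates 3 or 4 or SNL plus UNC0638 replicate 1, with a lowest adjusted p of 0.0223. Ifitm1 had values of 216, 295 and 437 in SNL plus UNC0638 libraries, 317, 189, 138 and 257 in SNL libraries and 174, 149, 114 and 158 in Sham libraries. SNL and Sham overlapped (log2 fold change 0.55 with an SE of 0.27 and adjusted p = 0.114; called without SNL replicate 3), and SNL plus UNC0638 was higher than Sham (log2 fold change 1.04 with an SE of 0.29 and adjusted p = 0.0113), which was lost without SNL plus UNC0638 replicate 3 (adjusted p = 0.0628). Against SNL it gave 0.50 (adjusted p = 0.216). Bst2, the gene of tetherin, which holds budding viruses at the cell surface, had values of 44.8, 78.9 and 63.2 in SNL plus UNC0638 libraries, 108, 104, 98.4 and 87.6 in SNL libraries and 27.8, 31.8, 101 and 36.1 in Sham libraries. The SNL level was higher (log2 fold change 1.20 with an SE of 0.35 and adjusted p = 0.0143), although Sham replicate 3 reached into the SNL range. SNL plus UNC0638 libraries lay below all SNL libraries without passing (log2 fold change -0.70 with an SE of 0.38 and adjusted p = 0.179) and overlapped Sham (log2 fold change 0.50 with an SE of 0.38 and adjusted p = 0.279). Without Sham replicate 3, Bst2 with UNC0638 was called lower than SNL and higher than Sham.

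The ADP-ribosyltransferase genes rose in both ligated groups. Parp14 had values of 1359.7, 2796 and 2367 in SNL plus UNC0638 libraries, 1123, 1124, 973 and 1492 in SNL libraries and 696, 606, 801 and 649 in Sham libraries. It rose in SNL (log2 fold change 0.77 with an SE of 0.21 and adjusted p = 0.0102) and was higher with UNC0638 than in SNL (log2 fold change 0.84 with an SE of 0.22 and adjusted p = 0.0184), with SNL plus UNC0638 replicate 1 below SNL replicate 4 and a call lost without SNL plus UNC0638 replicates 2 or 3 (adjusted p 0.0646 to 0.0821). Parp9, which works with the ubiquitin ligase Dtx3l, had values of 597, 1153 and 1004 in SNL plus UNC0638 libraries, 603, 586, 438 and 775 in SNL libraries and 239, 232, 280.5 and 229.8 in Sham libraries. SNL exceeded Sham without overlap (log2 fold change 1.26 with an SE of 0.21 and adjusted p = 0.000612), and with UNC0638 the difference from SNL did not pass (log2 fold change 0.59 with an SE of 0.23 and adjusted p = 0.072) but passed without SNL replicate 4 or without SNL plus UNC0638 replicate 1. Against Sham with UNC0638, Parp14 gave 1.60 (SE 0.22, adjusted p = 0.000286) and Parp9 1.85 (SE 0.23, adjusted p = 0.000156).

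Ifi27 was the member that fell. Ifi27, an interferon-induced gene of mitochondria and the nuclear envelope, had values of 3438, 3189 and 2871 in SNL plus UNC0638 libraries, 3268, 3581, 3212 and 4099.7 in SNL libraries and 5822, 4675, 4458 and 6026 in Sham libraries. All ligated libraries lay below all Sham libraries, with log2 fold change -0.56 with an SE of 0.13 and adjusted p = 0.00476 in SNL and log2 fold change -0.72 with an SE of 0.14 and adjusted p = 0.00177 in SNL plus UNC0638, and the ligated groups overlapped (log2 fold change -0.16 with an SE of 0.14 and adjusted p = 0.42). Ifi44 lay between 310.1 and 609 in every library and passed no test. In all, 24 of the 37 members passed in at least 1 comparison over all 11 libraries and 13 in none, the 13 being Irf7, Stat2, Ifit1, Isg15, Oas1a, Oas1b, Oasl, Usp18, Ifi44, Rsad2, Ddx58, Dhx58 and Socs1. Of all genes tested, 48.2% passed in SNL against Sham, 27.8% in SNL plus UNC0638 against SNL and 51.5% in SNL plus UNC0638 against Sham. The share of all genes that passed in at least 1 of these was not counted, so the 24 cannot be set against it. At an unadjusted p under 0.05 20 of 37 members passed in SNL against Sham (55.7% of all genes), 12 in SNL plus UNC0638 against SNL (42.3%), and 20 where SNL plus UNC0638 was set against Sham (57.6%).

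Within groups the median SD of the members was above that of all genes, and the same libraries tended to hold their extremes. The median SD of log2 values over libraries was 0.52 for the members and 0.23 for all genes tested in SNL plus UNC0638, 0.34 and 0.21 in SNL, and 0.29 and 0.25 in Sham. SNL plus UNC0638 replicate 1 held the lowest value of its group for 34 of 37 members (91.9%), as it did for 37.0% of all genes tested. SNL plus UNC0638 replicate 2 held the highest for 28 members (75.7%, against 29.0% of all genes). SNL replicate 4 held the highest value of its group for 24 members (64.9%, against 26.0% of all genes). These were 10 of the 13 members that passed in no comparison and 14 of the 24 that passed in at least 1. Spread within a group enters each call, so this split is not independent of the calls. SNL replicate 3 held the lowest value for 25 members (67.6%, against 35.8%). Sham replicate 3 held the highest of its group for 22 members (59.5%, against 40.7%). The heat map of members by library shows these columns.

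**Figure D4:**
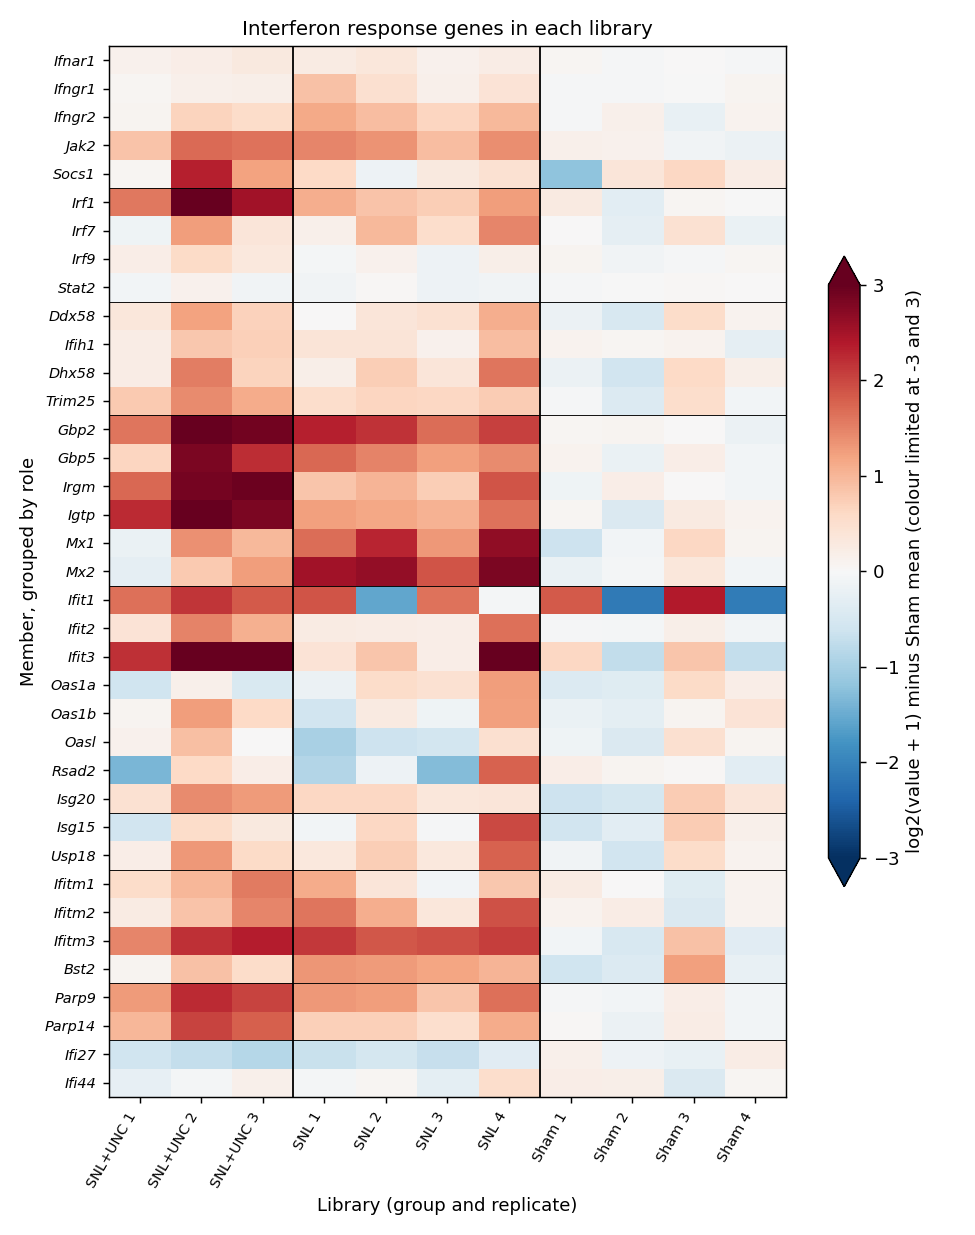
Log2(value + 1) of 37 interferon response genes in each of 11 libraries (columns: SNL plus UNC0638, SNL, Sham), minus the mean of the 4 Sham libraries, with red above and blue below that mean and the colour scale limited at -3 and 3. SNL plus UNC0638 replicate 1 is lower than replicates 2 and 3 over most rows, and SNL replicate 4 is redder than the other SNL libraries over Ifit2, Ifit3, Rsad2, Isg15 and Usp18.

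Left out in turn, these libraries moved the counts of the UNC0638 comparison. Without SNL plus UNC0638 replicate 1, 7 members were higher and 1 lower than in SNL, while genes called over the whole table numbered 2542, against 3356 with all libraries. Without SNL replicate 4, 8 members were higher and 1 lower with UNC0638 than in SNL, and 2427 genes were called. Against Sham, 22 members were higher without SNL plus UNC0638 replicate 1, with 6311 genes called, against 17 members and 6220 genes with all libraries. In SNL plus UNC0638 against SNL, Mx2 was also the sole lower member without Sham replicate 4, SNL replicates 1 or 2, or SNL plus UNC0638 replicate 3. Members higher with UNC0638 than in Sham were 11 without SNL plus UNC0638 replicate 3, with 4911 genes called. Between the ligated groups, Irf1, Irgm, Igtp and Mx2 were called in every one of the 11 fits. Without Sham replicate 3, Ifit3, Trim25 and Bst2 also passed between the ligated groups, and without SNL replicate 3 Ifngr1 did. In SNL against Sham 15 to 19 members were higher in these fits. Of the 18 calls of members 16 were never lost, the exceptions being Ifnar1 and Trim25. Over all genes, calls in that comparison numbered 4805 to 6511 in these fits, against 5823 with all libraries. The share of all called genes that were never lost was not counted. The 16, and the 4 kept between the ligated groups, therefore cannot be set against it.

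Genes of the interferon pathway outside the set were counted from a list of 106, of which 70 were in the table and 63 were tested. The list was written with earlier results of these data known, so its counts are no independent support for those of the members. SNL against Sham had 35 higher (against 24.8% of all genes tested) and 4 lower (against 23.4%), with a median log2 fold change of 0.66. With UNC0638, 18 were higher (against 13.5% of all genes) and 4 lower (against 14.3%) than in SNL (median 0.34). Set against Sham, 44 were higher with UNC0638 (against 25.5% of all genes) and 4 lower (against 26.0%; median 1.17). Of 12 interferon genes listed, 6 were in the table and 0 reached the level needed for a test; the others are not analysed here. Ifnb1 was listed at 0 in every library, Ifng reached 1.55, Ifna1 4.64, Ifna2 5.16 and Ifna4 1.29 at most, which at these steps are a few reads, and Ifnk averaged 10.2 ± 5.01 with UNC0638, 3.08 ± 2.26 in SNL and 1.06 ± 0.73 in Sham ganglia (SD, n = 3, 4 and 4), untested. Irf3, the factor that sensors of nucleic acids activate, averaged 837 ± 89.8 in SNL plus UNC0638 ganglia, 449 ± 41.5 in SNL ganglia and 365 ± 24.5 in Sham ganglia, each with its SD (n = 3, 4 and 4; log2 fold change 0.90 with an SE of 0.12 and adjusted p = 0.00076, SNL plus UNC0638 against SNL). Ikbke, a kinase upstream of Irf3, averaged 291 ± 69.5 in SNL plus UNC0638 ganglia, 105 ± 32.9 in SNL ganglia and 54.5 ± 13.5 in Sham ganglia (log2 fold change 1.48 with an SE of 0.26 and adjusted p = 0.00264, SNL plus UNC0638 against SNL).

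Further pathway genes with the smallest p-values were these. Ifi47, an immunity-related GTPase gene like Igtp, averaged 514 ± 193 in SNL plus UNC0638 ganglia, 238 ± 46.7 in SNL ganglia and 62.2 ± 16.7 in Sham ganglia (log2 fold change 1.93 with an SE of 0.26 and adjusted p = 0.000209, SNL against Sham; log2 fold change 2.97 with an SE of 0.28 and adjusted p = 5.79e-05, SNL plus UNC0638 against Sham). The Schlafen gene Slfn3 averaged 1042 ± 669 in SNL plus UNC0638 ganglia, 127 ± 54.2 in SNL ganglia and 49.7 ± 8.45 in Sham ganglia and was higher with UNC0638 than in SNL (log2 fold change 2.91 with an SE of 0.43 and adjusted p = 0.0013). Slfn2, of the same family, averaged 697 ± 268 in SNL plus UNC0638 ganglia, 496 ± 119 in SNL ganglia and 107 ± 20.6 in Sham ganglia (log2 fold change 2.19 with an SE of 0.25 and adjusted p = 0.000121, SNL against Sham). Slfn13 averaged 951 ± 304 in SNL plus UNC0638 ganglia, 395 ± 95.0 in SNL ganglia and 127 ± 29.1 in Sham ganglia (log2 fold change 2.86 with an SE of 0.26 and adjusted p = 4.30e-05, SNL plus UNC0638 against Sham). Mov10, an RNA helicase gene, averaged 322 ± 97.4 in SNL plus UNC0638 ganglia, 126 ± 14.4 in SNL ganglia and 61.3 ± 11.4 in Sham ganglia (log2 fold change 1.30 with an SE of 0.23 and adjusted p = 0.00257, SNL plus UNC0638 against SNL). Oas1f was low, at 16.2 ± 3.80 in SNL plus UNC0638 ganglia, 3.02 ± 1.37 in SNL ganglia and 13.6 ± 3.84 in Sham ganglia (log2 fold change 2.15 with an SE of 0.37 and adjusted p = 0.00236, SNL plus UNC0638 against SNL). In SNL against Sham, Irf5 (1.93), which acts in macrophage activation, the scramblase gene Plscr1 (1.68), the receptor adaptor gene Myd88 (1.16) and the feedback inhibitor gene Socs3 (2.56) rose, with adjusted p from 0.000134 to 0.000223.

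Markers of several cell types also differed between the groups. For the counts below, 24.8% of all genes tested were higher and 23.4% lower in SNL than in Sham. With UNC0638, 13.5% of all genes were higher and 14.3% lower than in SNL. Macrophage markers, of which 16 of 18 listed were tested, had summed values of 12121 to 22327 in SNL plus UNC0638, 11090 to 20821 in SNL and 2919 to 6154 in Sham libraries, with 15 higher and 0 lower in SNL against Sham and 2 higher and 0 lower in SNL plus UNC0638 against SNL. Emr1 was listed at 0 in every library. Within the groups, the sum was lowest in SNL plus UNC0638 replicate 1 and SNL replicate 3 and highest in Sham replicate 3. The same held for the sums of T and NK cell, dendritic cell and fibroblast markers, though not for every list. Sensory neuron sums were the highest of their group in each of these libraries (265734, 244188 and 480892). T and NK cell markers summed to 232 to 651 in SNL plus UNC0638, 238 to 491 in SNL and 48.9 to 81.0 in Sham libraries. Of 12 tested, 10 were higher and 0 lower in SNL than in Sham, and 4 were higher and 1 lower with UNC0638 than in SNL. Neutrophil markers summed to 636 to 885 in SNL plus UNC0638, 116 to 320 in SNL and 35.4 to 260.1 in Sham libraries. Of 7 neutrophil markers tested, 3 were higher in SNL than in Sham and 2 with UNC0638 than in SNL, and the sums of SNL and Sham libraries overlapped. Dendritic cell markers summed to 1141 to 1325 in SNL plus UNC0638, 794 to 1259 in SNL and 703 to 1047 in Sham libraries, with overlap, and 4 of 6 were higher and 1 lower in SNL than in Sham. Sensory neuron markers summed to 161696 to 265734 in SNL plus UNC0638, 162720 to 244188 in SNL and 369320 to 480892 in Sham libraries. Of 13 tested, 1 was higher and 11 lower in SNL than in Sham, and 3 were higher and 2 lower with UNC0638 than in SNL. Fibroblast markers summed to 38077 to 93337 in SNL plus UNC0638, 86007 to 217218 in SNL and 24092 to 33792 in Sham libraries, highest in SNL replicate 4. All 8 of 8 were higher in SNL than in Sham, and 4 were lower and 0 higher with UNC0638 than in SNL. In SNL against Sham, 7 of 10 dividing cell markers and 6 of 8 endothelial markers were higher and 0 lower, and with UNC0638 against SNL 0 and 1 were higher and 1 and 1 lower. The part of these cells in the values of the interferon response genes was not tested.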

How the data were processed

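Total RNA of dorsal root ganglia was extracted with Trizol or RNeasy, and since the labels do not tie a reagent to a sample, reagent and group cannot be told apart. RNA was sequenced as stranded, ribosome-depleted libraries with reads of 50 bases on a HiSeq 2500, per the labels' protocols and the series' design text. Reads were aligned to build rn4 with TopHat (TopHat2 2.0.9), and Cuffdiff 2.1.1 is named, per the submitters' processing notes. The sources used here give no annotation, strand setting or rule for shared reads. Deposited signal values behave like counts scaled by 1 factor per library: 98.8% to 99.3% of low values were whole multiples of a step within 0.01 steps. Some smaller fractional values broke this pattern, so no count test was run.

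Tested were 12085 genes that reached 10 in 3 or more libraries, without Sdc2 and Pcdhgc5, which were at 0 in 1 group only. limma 3.58.1 (R 4.3.3, statmod 1.5.0) used log2(value + 1), 1 mean for each group and all 11 libraries, eBayes with trend and robust estimates, two-sided, and Benjamini-Hochberg adjustment over all tested genes; calls have adjusted p under 0.05. Fold changes understate low genes. SE is that of the moderated fit. Fold changes of means use the values themselves. The fit was tested on simulated data. Members and lists were chosen with earlier results of these data known. Members called in any comparison are given in every library; of other pathway genes, the 6 called ones with the smallest p in each comparison, of which 1 gene is not reported here. Promoter windows are RefSeq's (GRCr8), a later build than rn4, used only for sequence. Alternatives were another pseudocount, filter, scaling or threshold, only the groups compared, a replicate block, libraries left out and, chosen after seeing the data, library quality weights.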

Additional observations from a re-analysis of the deposited data

Results flagged for a closer look

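In 4 of 74 groups of 4 libraries (37 members in SNL and in Sham), a single library lay far from the other 3; chance gives about 3.7. SNL replicate 4 was the library in 3 of them. Ifit2 had 566 in that library, against 206 to 213 in the other SNL libraries, Ifit3 203, against 27.0 to 42.4, and Rsad2 360.3, against 42.0 to 94.3. Bst2 had 101 in Sham replicate 3, against 27.8 to 36.1 in the other Sham libraries.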

How the results depend on the processing

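In SNL against Sham, 5823 genes were called, and 3780 at an adjusted p under 0.01. In SNL plus UNC0638 against SNL, 3356 were called, 1304 at that threshold and 5346 without Sham replicate 3 and SNL replicate 3 together. In SNL plus UNC0638 against Sham, 6220 were called, 4129 at that threshold. Members higher with UNC0638 than in SNL (4) were 11 with library quality weights (4795 genes called), and members lower (3) were 1 at the stricter threshold and 5 without those replicates. Members higher with UNC0638 than in Sham (17) were 11 at the stricter threshold and 26 with quality weights (7702 genes called). With single libraries left out, the ranges were 4805 to 6511 genes, 15 to 19 members higher and 1 lower in SNL against Sham, 2078 to 4466 genes (2078 without SNL replicate 1 and 2098 without SNL plus UNC0638 replicate 2), 3 to 8 higher and 1 to 4 lower in SNL plus UNC0638 against SNL, and 4671 to 6956 genes, 11 to 22 higher and 1 lower in SNL plus UNC0638 against Sham. The causes were not tested. Apart from these and the block below, no count moved by more than 1.5 times.

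In SNL plus UNC0638 against SNL, Ifitm3 turned to -0.0014 with median-of-ratios scaling, and Ifitm3 and Jak2 to -0.020 and -0.011 without Sham replicate 3 and SNL replicate 3. With single libraries left out, log2 fold changes there ranged from -0.17 to 0.27 for Ifitm3, -0.042 to 0.38 for Jak2, -0.069 to 0.012 for Ifnar1 and -0.038 to 1.05 for Gbp5, and in SNL against Sham from -0.027 to 0.080 for Irf9. The other pseudocounts and the stricter filter moved no count of members by more than 1. With only the groups compared in the fit, SNL against Sham lost Ifnar1 (adjusted p = 0.0547) and gained Irf7. SNL plus UNC0638 against SNL lost Ifngr2 (adjusted p = 0.0612) and gained Bst2 as lower (adjusted p = 0.0428). SNL plus UNC0638 against Sham lost Irf9, Isg20 and Ifngr2 (adjusted p 0.0578 to 0.0937) and gained Ddx58 and Ifitm2.

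Whether replicate numbers pair the libraries cannot be settled with 3 or 4 libraries a group. Same-numbered libraries correlated in their deviations at -0.446 to 0.431 over genes. The value of 0.431, for Sham replicate 3 and SNL replicate 3, was the highest between any libraries of different groups. In 3 of 20 pairings of a library with another group the own number correlated best. With the replicate number as a block, SNL plus UNC0638 against SNL had 2126 genes called, 4 members higher and 2 lower, Ifngr2 missing the threshold (adjusted p = 0.0920) and Ifitm3 at -0.042; SNL against Sham had 16 members higher, having lost Ifnar1 (adjusted p = 0.107), and SNL plus UNC0638 against Sham 16, having lost Isg20, Ifih1 and Ifngr2 (adjusted p 0.0529 to 0.0720) and gained Ddx58 and Oas1b. A count test on recovered reads, planned, was not run, since the values did not allow it. Few reads limit Socs1, Isg20 and Ifit1, with as few as 2 estimated reads in a library. Low Ifit1 values did not follow library depth. It had an estimated 9 reads in SNL replicate 2 (24367805 reads in all) and 3 in Sham replicate 4 (14179215). In Sham replicate 3 (7282758 reads in all) it had 47. The cause was not tested.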
